A study of Mus musculus with 2 samples.

Results

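The p300 sites described here were listed in both the heart and the midbrain of mouse embryos at embryonic day 11.5. A heart peak belonged to the set when it overlapped a midbrain peak by at least 1 bp, and a midbrain peak when it overlapped a heart peak in the same way. The rule gave 154 of 3597 heart peaks (4.28%, exact Clopper-Pearson 95% interval 3.64 to 4.99) and 155 of 2786 midbrain peaks (5.56%, interval 4.74 to 6.48), 309 of the 6383 listed peaks in all. Overlapping peaks were merged into 144 sites, each reaching from the first to the last base of its peaks, and the sites covered 190.2 kb of the mouse build mm9. The members were thus chosen by the positions of listed peaks, which come from the reads of both libraries. Read numbers at the sites, and ratios between the libraries, are therefore descriptions and carry no test.

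The heart group is heart tissue and the midbrain group is midbrain tissue of CD-1 embryos of that stage, both with males and females together and with no genotype or treatment in the labels. p300 was precipitated from each with the same antibody, and each tissue is represented by 1 library from material pooled over about 150 embryos. There were 1303861 aligned reads from the heart and 5869671 from the midbrain. Scaled to 1000000 aligned reads (rpm), 1 read was worth 0.767 rpm for heart and 0.170 rpm for midbrain tissue. Without a second library of either tissue, no difference has a replicate check. Intervals cover counting error only, since each tissue has 1 library. They take each read as a separate molecule, which cannot be checked for reads amplified by PCR and carrying no molecular identifier. Whole tissues hold many cell types, and binding in fewer cells cannot be told apart from weaker binding in more cells.

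The protein p300 is a large coactivator without a DNA-binding domain for specific sequences. It is brought to enhancers and promoters by many transcription factors, acetylates histones and the factors themselves, and its presence marks many active regulatory regions. Because the factors that recruit it differ between cell types, distal sites of p300 are often restricted to a tissue, while promoters and enhancers of widely used genes can be occupied in several. The midbrain arises from neural ectoderm and the heart mainly from mesoderm, and both tissues also hold cells of the same kinds, such as those of blood vessels.

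Most sites joined 1 peak of each list. There were 125 sites with 1 heart and 1 midbrain peak, 9 with 1 heart and 2 midbrain peaks, 8 with 2 heart and 1 midbrain peak and 2 with 2 of each, which makes 165 overlapping pairs. In the 19 sites with more than 1 peak of a list, the gap between neighbouring peaks of that list had a median of 120 bp (range 39 to 752 bp). Their median length was 1773 bp, with medians of 9.20 rpm (heart) and 7.50 rpm (midbrain) and a median heart over midbrain ratio of 1.10 (range 0.750 to 3.96). Sites with 1 peak of each list had a median length of 1154 bp, 6.14 and 3.58 rpm and a ratio of 1.75.

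Within a pair the peaks rarely matched in their boundaries. The overlap had a median of 505 bp (quartiles 268 and 663 bp), which was 64.2% of the heart peak and 55.2% of the midbrain peak. In 33 pairs the heart peak lay wholly inside the midbrain peak, in 18 pairs the midbrain peak lay inside the heart peak, and in 114 pairs each reached past the other. The midbrain peak was the wider one in 90 of 165 pairs. Sites themselves ran from 445 to 3385 bp with a median of 1185.5 bp.

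The limit of 1 bp admitted a few pairs that barely touched. The smallest overlap, 4 bp, was between the heart peak chr2:59535985-59536582 and the midbrain peak chr2:59536579-59537099, with ranks of 1996 and 2579 in their lists. Overlaps of 8 bp on chromosome 7 and 22 bp on chromosome 4 followed, and 14 pairs overlapped by less than 100 bp. Just outside the limit, the heart peak chr2:116801381-116801752 missed the midbrain peak chr2:116801802-116802786 by 49 bp, and the next gaps were 55 and 64 bp. In all, 66 heart and midbrain pairs missed each other by less than 1 kb, and 32 of these held a peak that belongs to the set through another partner. Counted by the distance between their centres, heart and midbrain peaks met at 272 pairs per kb of distance below 250 bp, at 53 pairs per kb from 1 to 2 kb and at 23.6 pairs per kb from 5 to 10 kb.

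Members came from the whole length of both lists. Shared heart peaks had a median rank of 1082 in the heart list, where 1 is the best, and those found in the heart list alone a median of 1828. Shared midbrain peaks had a median rank of 1157 against 1406 for the midbrain-only peaks. The Spearman correlation of the best heart rank and the best midbrain rank over the 144 sites was 0.17, given as a description, since sites of a library share its depth. A heart rank within 500 was found at 47 sites and a midbrain rank within 500 at 41, and 18 sites had both. Only chr13:81022574-81025344 lay within the best 100 of both lists.

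Shared heart peaks were also wider than heart-only peaks of like rank, and shared midbrain peaks were not consistently so. At heart ranks 1 to 500 the median width was 977 bp for 48 shared peaks and 834.5 bp for 452 heart-only peaks. Beyond rank 500 and up to 1000 these medians were 780.5 and 707 bp, from there up to 2000 they were 751 and 654 bp, and beyond 2000 they were 663 and 620 bp. In the midbrain list the shared and midbrain-only medians were 1290 and 1256 bp, 909 and 957 bp, 717.5 and 712 bp, and 508.5 and 548 bp in the same 4 bins. A wider peak meets another list by 1 bp more easily, so width is part of what the rule selects.

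Reads were then counted between the outer boundaries of each site, which favours neither list. Heart reads numbered 4 to 44 per site with a median of 8, and midbrain reads 9 to 121 with a median of 22. The lowest heart count was at chr19:61341910-61342429, where reads covering the site with their middle outside it were not counted. In library-scaled units the heart ran from 3.07 to 33.7 rpm (median 6.14) and the midbrain from 1.53 to 20.6 rpm (median 3.75). Only 54 sites held 10 or more heart reads, so most single ratios have wide intervals. Levels in the libraries had a Spearman rho of 0.54 over the 144 sites, given as a description. Both also followed the length of the site, with rho 0.65 for heart and 0.81 for midbrain levels.

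The heart library had the higher scaled level at 129 sites and the midbrain library at 15. Pooled over all sites, the heart over midbrain ratio was 1.60 (exact conditional binomial 95% interval 1.51 to 1.70), and per site it ran from 0.463 to 4.88 with a median of 1.70. It was at least 2-fold in favour of the heart at 50 sites, which is 34.7%. The same call was made at 56.2% of all listed regions, with each shared site counted once. In favour of the midbrain it was at least 2-fold at 1 site, 0.694% of the sites, where the background over all listed regions was 33.0%. The other 93 sites lay within 2-fold. The interval of the ratio lay above 1 at 30 sites, 20.8% against 51.7% of all listed regions, below 1 at none, against 8.07%, and included 1 at 114. Under the other boundaries, read placements and scalings, and with the midbrain library thinned to heart depth, the count above 1 ran from 11 (midbrain-list boundaries) to 47 (heart-list boundaries) and the count below 1 from 0 to 2. Since the rule asked for a peak in both lists, nothing can be read about p300 from these shares or from the pooled ratio. Boundaries and scaling moved the pooled ratio: it was 2.21 within the heart-list boundaries, 1.28 within the midbrain-list boundaries and 1.24 when scaled to the reads in the flanks.

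**Figure D1:**
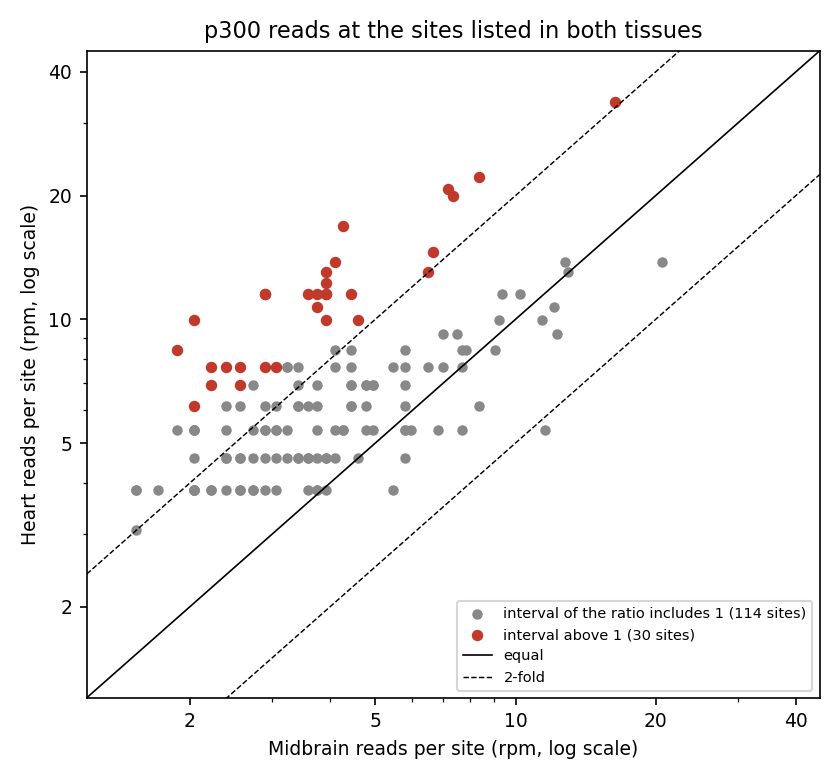
Midbrain and heart reads at each of the 144 sites, in rpm on log axes; the solid line marks equal levels and the dashed lines 2-fold differences. The points lie mostly above the line of equal levels, the 30 sites with an interval above 1 are in red, and heart values fall in rows because 1 heart read is worth 0.767 rpm.

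The size of the ratio went with the list in which the site ranked well. Over the 69 sites with a midbrain rank within 1000 the ratio was 1.29 (interval 1.18 to 1.40), and over the 75 with a midbrain rank beyond 1000 it was 2.26 (interval 2.05 to 2.49). For the 75 sites with a heart rank within 1000 it was 1.79 (interval 1.65 to 1.93) and for the other 69 it was 1.33 (interval 1.197 to 1.48). Each rank belongs to the list of its own library, so these values describe how the sites were listed. Rank need not follow the reads counted here, since a read was counted by the middle of its 300 bp and coverage takes all 300 bp. At chr19:61341910-61342429, heart rank 43, 4 heart reads were counted, where the heart coverage maximum was 11 reads. Reads that cover this site with their middle outside it are in the coverage and not in the count. The count there is thus too low to set against the rank.

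Sites are named by rules applied outside chromosome 18, whose sites count in all totals. Among the sites placed high in both lists, chr13:81022574-81025344 stood first, with heart rank 1 and midbrain rank 9. It held 44 heart reads (33.7 rpm, the highest heart level of the set) and 96 midbrain reads (16.4 rpm), a ratio of 2.06 (interval 1.41 to 2.98). Its coverage maxima were 87.5 bp apart. Another shared site followed directly, and both lie within 4.243 kb at chr13:81022574-81026816. The site chr2:38678406-38681680 had heart rank 183 and midbrain rank 6 and the highest midbrain level of the set, 121 reads (20.6 rpm) against 18 heart reads (13.8 rpm). All of its heart peak, 1279 bp, lay inside a midbrain peak of 3275 bp, and its ratio of 0.670 had an interval that included 1 (0.384 to 1.10).

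The next sites by summed rank were more even. At chr2:13496863-13498608 (ranks 218 and 79) there were 11 heart and 53 midbrain reads, 8.44 and 9.03 rpm. At chr2:17978382-17980873 (ranks 233 and 89) there were 15 and 60 reads, 11.5 and 10.2 rpm. At chr5:115938802-115940736 (ranks 109 and 213) there were 15 and 55 reads, 11.5 and 9.37 rpm, and the midbrain list split this site into 2 peaks. The intervals of all 3 ratios included 1. At chr6:136416050-136417921 (ranks 2 and 308), by contrast, 27 heart and 42 midbrain reads gave 20.7 and 7.16 rpm and a ratio of 2.89 (interval 1.72 to 4.80).

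Outside chromosome 18, the 5 sites with the highest lower bound in favour of the heart ranked high in the heart list and low in the midbrain list. At chr13:51943040-51944653 (ranks 64 and 1959) both lists had 2 peaks, with 22 heart reads (16.9 rpm) against 25 midbrain reads (4.26 rpm) and a ratio of 3.96 (interval 2.13 to 7.32). The sites chr3:88313589-88314620 (ranks 40 and 2201) and chr14:76233556-76234850 (ranks 85 and 1875) each held 15 heart and 17 midbrain reads, which gives 3.97 in favour of the heart (interval 1.85 to 8.46). At chr10:36951518-36952429 there were 11 reads of each library, which is a ratio of 4.502 (interval 1.77 to 11.45) at these depths. At chr12:25783788-25785098 (ranks 28 and 2117) the ratio was 3.38 (interval 1.73 to 6.49), and 15 of its 18 heart reads and 13 of its 24 midbrain reads lay outside the midbrain peak. Within the midbrain-list boundaries the intervals of the last 2 sites included 1, with ratios of 2.25 (0.496 to 8.402) on chromosome 10 and 1.23 (0.220 to 4.65) on chromosome 12.

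Between the outer boundaries and scaled to aligned reads, no interval cleared 1 in favour of the midbrain. The nearest was chr12:100577599-100579415 (heart rank 754, midbrain rank 24), with 68 midbrain reads (11.6 rpm) and 7 heart reads (5.37 rpm), so that the midbrain was 2.16 times the heart (interval 0.992 to 5.57). All 7 heart reads lay in the 602 bp covered by both lists, and 53 of the midbrain reads lay in the 1126 bp listed in the midbrain only. The direction at this site, the 1 called 2-fold for the midbrain, therefore turned with its boundaries: within its heart peak the heart was the higher library (heart over midbrain 2.10, interval 0.725 to 5.47). Scaled to the flanks, its interval lay on the midbrain side (heart over midbrain 0.359, interval 0.139 to 0.781), as it did with reads not shifted (0.457, interval 0.177 to 0.992) and in the 500 bp at its middle, which held no heart read (upper bound 0.486). The site chr2:38678406-38681680 came next, the midbrain being 1.49 times the heart (interval 0.906 to 2.60), and scaled to the flanks its interval also lay on the midbrain side (heart over midbrain 0.519, interval 0.298 to 0.855). The sites chr1:139795081-139797667, chr13:29040104-29041804 and chr4:81949441-81950974 followed, with midbrain over heart ratios of 1.33, 1.43 and 1.36 and 7 to 12 heart reads.

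A group of sites had almost equal scaled levels. At chr4:8837685-8839761 there were 10 heart reads (7.67 rpm) and 45 midbrain reads (7.67 rpm), with an interval of the ratio from 0.450 to 2.01. At chr2:17965150-17968534, the longest site of the set, there were 17 heart and 76 midbrain reads (13.04 and 12.95 rpm, interval 0.558 to 1.72). At chr12:81162626-81164506 the levels were 8.44 and 7.84 rpm, and at chr16:77328996-77332045 they were 13.8 and 12.8 rpm. An interval from 0.450 to 2.01 does not show that the levels are the same, since differences within it cannot be told from none at this depth.

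Equal totals could come from different parts of a site. At chr4:8837685-8839761 the stretch in both lists held 5 heart and 9 midbrain reads, and 34 of the 45 midbrain reads lay where only the midbrain list had a peak. At chr12:28023017-28026130, 58 of 67 midbrain reads and 4 of 13 heart reads lay in the part listed in the midbrain only. At chr16:77328996-77332045 the same part held 64 of 75 midbrain reads and 12 of 18 heart reads, although the heart list has no peak in it. This part was 2576 bp long, and the 397 bp in both lists held 4 heart reads, so heart reads were less dense in the longer part. A site that behaved otherwise was chr16:42780617-42782830 (ranks 576 and 38), where 2 heart peaks lay wholly inside the midbrain peak and 12 of 14 heart reads and 49 of 71 midbrain reads lay in the common stretch.

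Over the whole set, 42.6% of the sequence of the sites lay in both lists, 23.8% only in heart peaks and 33.6% only in midbrain peaks. The common part held 60.2% of the heart reads (832 reads, interval 57.5 to 62.8) and 51.7% of the midbrain reads (2009 reads, interval 50.1 to 53.3). Heart reads had densities of 7.87 rpm per kb in the common part, 7.20 where only a heart peak was listed and 1.51 where only a midbrain peak was listed. Midbrain reads had 4.22, 1.75 and 3.76 rpm per kb in the same parts. The boundaries were drawn from these reads, so the falls in density are partly made by the listing. In the part listed for the other alone, each library was denser than in the flanks 5 to 10 kb away. These held 7.47 rpm of heart reads and 5.79 rpm of midbrain reads, counted per 10 kb and not per kb. By the rule such parts lie in a site with a listed peak of the same library, so this excess is description only. Of the 126 heart reads listed in the midbrain only, chr16:77328996-77332045 and chr19:5799567-5801565 held 12 each and chr13:81022574-81025344 held 11.

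**Figure D2:**
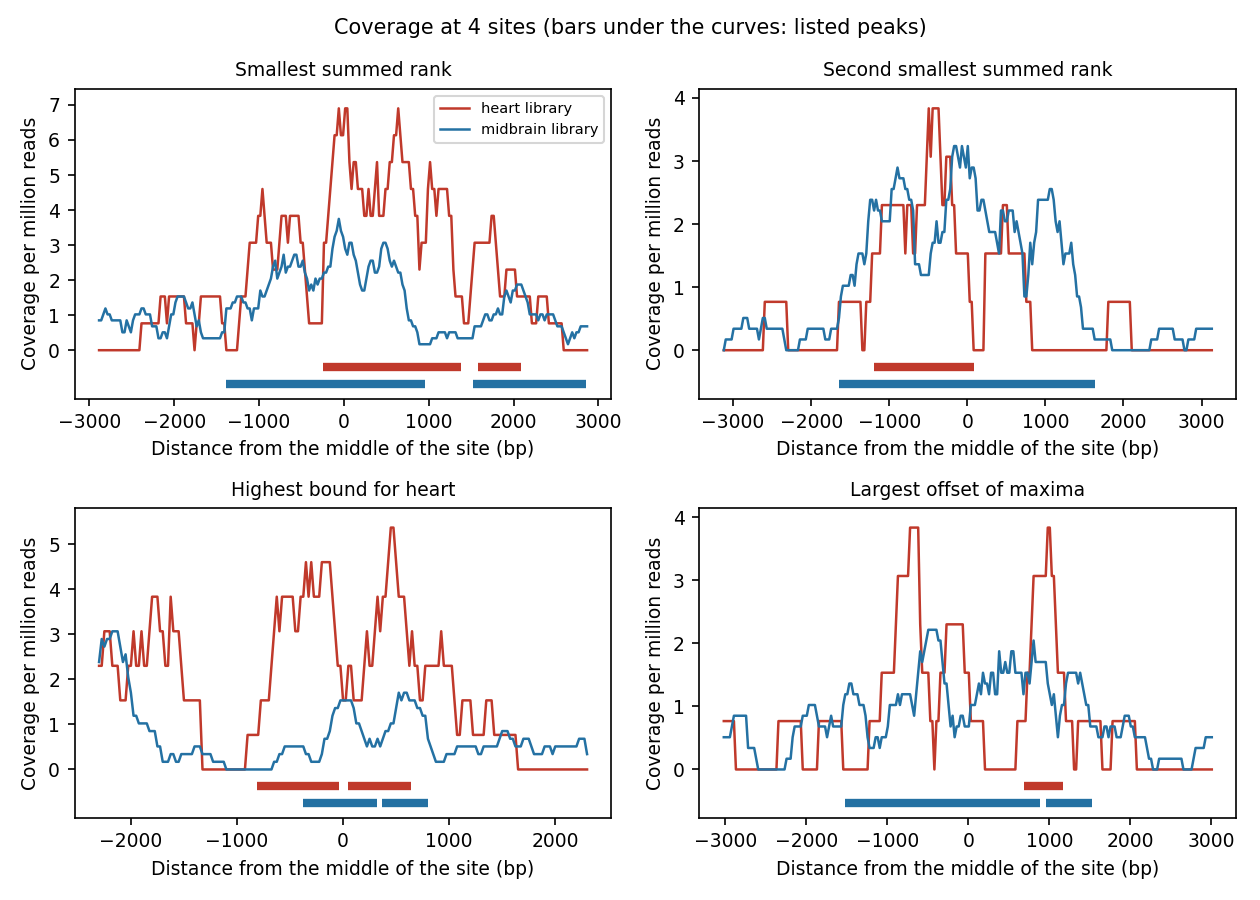
Coverage by reads lengthened to 300 bp, in rpm, against the distance from the middle of 4 sites, with listed peaks as bars under the curves (red heart, blue midbrain). In order they are chr13:81022574-81025344, chr2:38678406-38681680, chr13:51943040-51944653 and chr16:77328996-77332045; in the last, the heart curve is as high at a place without a heart peak as at the heart peak.

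How well the maxima coincided was measured on the deposited coverage, which has steps of 25 bp. For each site the pair of overlapping peaks with the best ranks was used, and the middle of the highest steps of each library in its own peak was taken as its maximum. The maxima were a median of 275 bp apart (quartiles 137.5 and 412.5 bp, n = 144). At 30 sites they were at most 100 bp apart, at 67 at most 250 bp and at 116 at most 500 bp. At 90 sites each maximum lay within the part listed for the other library.

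The heights of these maxima were low. The heart maximum was a median of 4 reads deep (range 2 to 14) and the midbrain maximum 10 reads (range 6 to 27), or 3.07 and 1.70 rpm. The offset was 243.75 bp in the median at the 26 sites with a heart maximum of 2 or 3 reads, 312.5 bp at the 86 sites with 4 or 5 reads and 231.25 bp at the 32 sites with 6 or more. For scale, the maxima of the plus-strand and minus-strand reads of 1 library within the same peak were a median of 237.5 bp apart in the heart (139 sites with reads on both strands of the peak) and 212.5 bp in the midbrain (144 sites). For these, the reads of each strand were lengthened to 300 bp in their own direction, and each strand holds only part of the reads. Both the lengthening and the fragment length can set the strand maxima apart, and their part in the strand distances was not tested. The strand distances therefore cannot show whether the distance between the libraries exceeds the scatter within a library.

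The same distance was measured in peaks of a single list, with both maxima searched within the listed peak. In shared heart peaks it was 225 bp in the median (29.5% of the peak width, n = 154), and in heart-only peaks 162.5 bp (25.1% of the width, n = 3251, the other 192 having no midbrain coverage). With midbrain coverage of at least 5 reads in the peak, the medians were 225 bp for 151 shared heart peaks and 187.5 bp for 453 heart-only peaks, or 29.4% and 28.9% of the width. In shared midbrain peaks the distance was 212.5 bp (23.5% of the width, n = 155). In midbrain-only peaks it was 200 bp (25.2%, n = 1737 of 2631, the rest having no heart coverage). By their medians in bp, the maxima of the libraries were not closer together in the shared peaks than in peaks listed once. As a share of the width, the median was larger in shared than in heart-only peaks and smaller in shared than in midbrain-only peaks. Long distances were also rarer in shared than in midbrain-only peaks. Midbrain-only peaks entered with any heart coverage, however low, so heart depth and sharing cannot be told apart in the comparisons of the midbrain list. No test was made because peaks of a library are not replicates.

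**Figure D3:**
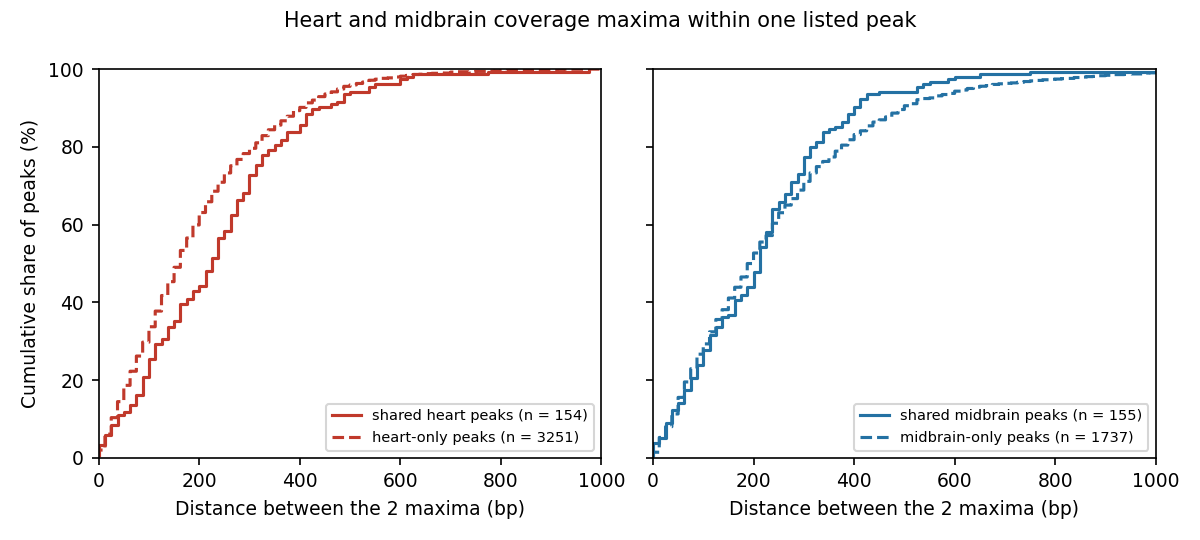
Cumulative share of peaks by the distance between the heart and the midbrain coverage maximum within the listed peak, for heart-list peaks (left) and midbrain-list peaks (right). In the heart list the solid curve of shared peaks lies to the right of the dashed curve of heart-only peaks over most of its course (medians 225 and 162.5 bp), and in the midbrain list the curves cross (medians 212.5 and 200 bp).

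Single sites showed the whole range. Among the sites with at least 10 heart reads outside chromosome 18, the smallest offset was 50 bp at chr14:76233556-76234850. An offset of 75 bp was shared by 3 further sites, of which chr11:117800952-117801913 and chr3:51592113-51593691 were named. The site on chromosome 11 held 10 reads from the heart and 14 from the midbrain, a ratio of 3.22 (interval 1.28 to 7.78), and the one on chromosome 3 held 12 and 41 reads (ratio 1.32, interval 0.630 to 2.56). The largest offsets among these were 1437.5 bp at chr16:77328996-77332045, 1237.5 bp at chr12:28023017-28026130 and 1175 bp at chr2:17978382-17980873. All 3 are at least 2492 bp long, and in none of them did each maximum lie within the other peak.

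Averaged over the set, the library not used for centring formed a broad rise. Around the heart maximum of shared heart peaks, mean midbrain coverage in rpm was 1.05 at 300 bp to the left, 1.02 at the maximum and 0.921 at 300 bp to the right, and 0.290 and 0.258 at 3000 bp on either side. Around the midbrain maximum of shared midbrain peaks, mean heart coverage was 1.47, 1.79 and 1.70 at these near points, and 0.391 and 0.356 at 3000 bp. The narrow point of the centring library, up to 3.57 in the heart and 1.87 in the midbrain, is made by choosing the highest place, and it is as wide as the lengthened reads. Peaks of a single list have no overlapping peak of the other library by the rule, so a lower level of that library there is part of the selection. Midbrain coverage was 0.232 at the maximum of heart-only peaks, and 0.1588 and 0.1474 at 3000 bp to the left and right. Heart coverage was 0.311 at the maximum of midbrain-only peaks, and 0.1705 and 0.1799 at these distances.

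**Figure D4:**
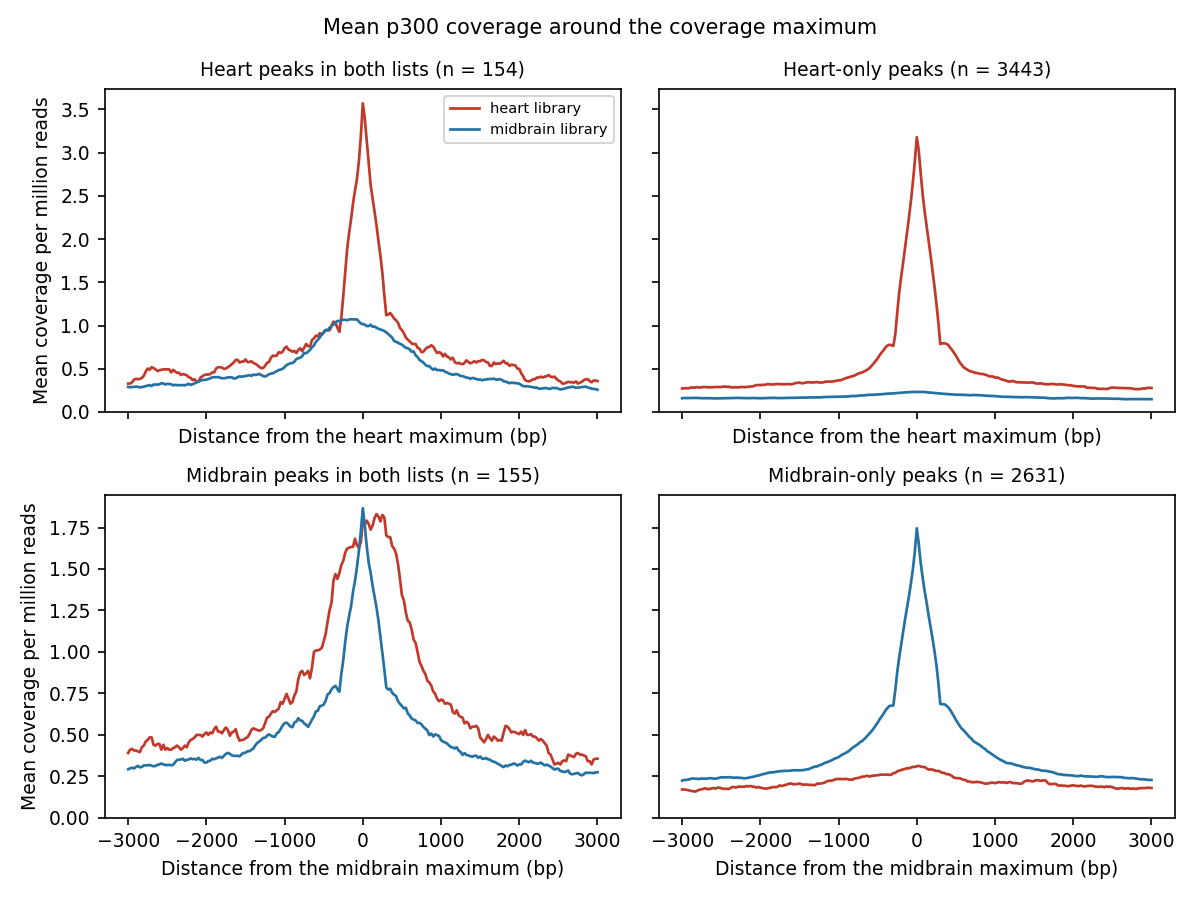
Mean coverage in rpm against distance from the coverage maximum of the heart peak (top) or the midbrain peak (bottom), for shared peaks (left) and peaks of 1 list (right); red is the heart and blue the midbrain library. In shared peaks the library that was not used for centring rises over about 1 kb on each side. In peaks of 1 list, which by the rule have no overlapping peak of that library, it is 0.232 and 0.311 at the maximum.

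Against their surroundings, the sites stood out in both libraries. Heart reads were 7.47 times as dense in the sites as 5 to 10 kb away (interval 6.93 to 8.05), and midbrain reads 6.01 times (interval 5.76 to 6.27). The peaks were listed for such an excess. The surroundings themselves differed from the average of the chromosomes, which was 3.77 rpm per 10 kb in each library. Flanks of the sites held 7.47 rpm per 10 kb of heart reads and 5.79 of midbrain reads. At heart-only peaks the flanks held 7.39 and 4.68 rpm per 10 kb, and at midbrain-only peaks 5.25 and 6.09. The heart flanks of shared sites were thus close to those of heart-only peaks, and the midbrain flanks close to those of midbrain-only peaks. Other listed peaks can lie in these flanks.

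Reads came from both strands. All 144 sites had midbrain reads on both strands and 141 had heart reads on both. Of the heart reads in the sites, 53.2% were on the plus strand (interval 50.5 to 55.9), against 50.6% in heart-only peaks, and of the midbrain reads 49.3% (interval 47.7 to 50.9).

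Neighbouring peaks were not named in the rule but are not independent of it. Heart and midbrain peaks were denser near each other, so a rule that asks for both favours places with peaks of both lists. Within 50 kb of their centre, 93 of the 144 sites had another listed region (64.6%, interval 56.2 to 72.4), compared with 50.9% of the heart-only peaks (interval 49.2 to 52.6) and 51.2% of the midbrain-only peaks (interval 49.3 to 53.2). The sites had heart-only neighbours about as often as heart-only peaks did, and midbrain-only neighbours about as often as midbrain-only peaks did. A heart-only peak lay near 60 sites (41.7%, interval 33.5 to 50.2), near 43.7% of the other heart-only peaks and near 17.7% of the midbrain-only peaks. A midbrain-only peak lay near 58 sites (40.3%, interval 32.2 to 48.8), near 41.0% of the other midbrain-only peaks and near 14.3% of the heart-only peaks.

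Neighbours of both kinds lay near 29 sites (20.1%, interval 13.9 to 27.6), against 7.55% of heart-only peaks (interval 6.69 to 8.49) and 8.13% of midbrain-only peaks (interval 7.12 to 9.24). A further 31 sites had heart-only and no midbrain-only neighbours, 29 had midbrain-only and no heart-only ones, and 55 had neither. Peaks cluster along the chromosomes and are not independent, so the intervals are too narrow and the differences have no test. Because the rule favours places with peaks of both lists, the share with both kinds of neighbour is description only. With the distance set to 20 kb, 47.9% of the sites had another listed region, and with 100 kb, 79.9%.

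**Figure D5:**
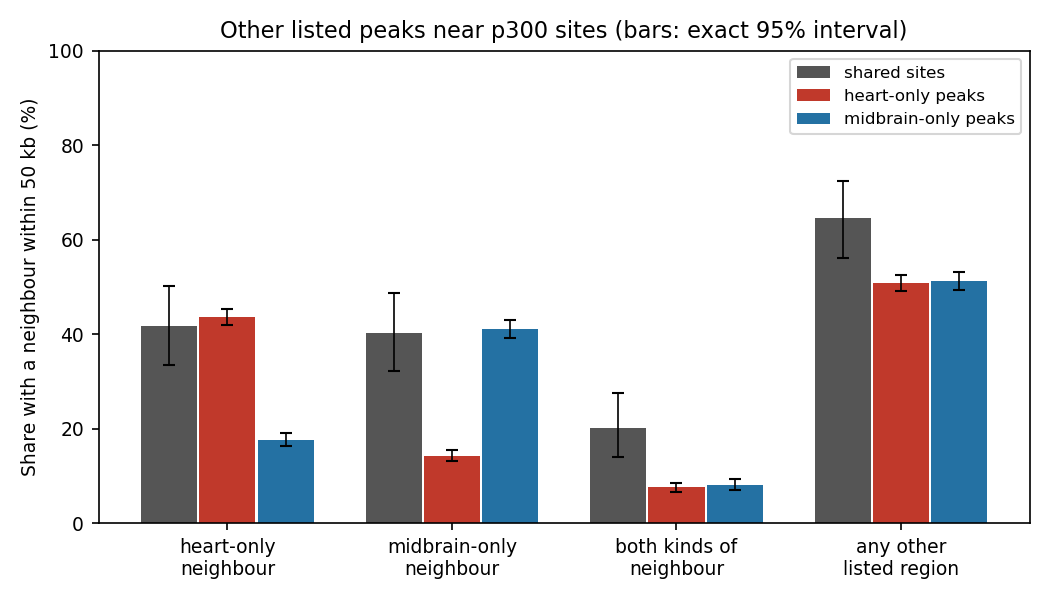
Share of shared sites (grey), heart-only peaks (red) and midbrain-only peaks (blue) with other listed peaks within 50 kb, by kind of neighbour; error bars are exact 95% intervals. Both kinds of neighbour are found near 20.1% of the shared sites and near 7.55% and 8.13% of the peaks of 1 list. The rule favours places with peaks of both lists, so this contrast is description only.

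A few sites lay in crowded regions. The sites chr2:17965150-17968534 and chr2:17978382-17980873 are close to each other and each had 2 heart-only and 9 midbrain-only peaks within 50 kb. Their ranks were 266 and 76, and 233 and 89, and both ratios were near 1. On chromosome 11, chr11:120092745-120093691 had 2 heart-only and 5 midbrain-only neighbours and chr11:120100665-120102306 had 2 and 4, with ratios of 1.17 and 1.18. The site chr19:5799567-5801565 (ranks 61 and 314) had 5 heart-only neighbours and 1 midbrain-only neighbour. It held 26 heart reads (19.9 rpm) and 43 midbrain reads (7.33 rpm), a ratio of 2.72 (interval 1.61 to 4.53), and its maxima were 1100 bp apart.

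Shared sites also lay near each other. Another shared site was within 50 kb of 22 sites (15.3%, interval 9.83 to 22.2), while a shared site was within 50 kb of 2.88% of the heart-only peaks (interval 2.34 to 3.49) and 3.53% of the midbrain-only peaks (interval 2.86 to 4.31). These 22 sites formed 11 groups of 2. The closest spanned 2.765 kb at chr8:26653133-26655897, 3.096 kb at chr13:29040104-29043199, 3.505 kb at chr12:88232817-88236321 and 3.912 kb at chr6:136416050-136419961. Some groups may be single regions split by the lists. At chr13:29040104-29043199, a heart peak of 1 site missed the midbrain peak of the other by 98 bp. With listed peaks less than 1 kb apart joined, 139 sites remained, so some sites fell together. The share of 15.3% was not counted again after joining, so part of its excess can come from split peaks.

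The sites were spread over the autosomes. Chromosome 2 had 15, chromosomes 11 and 13 had 13 each and chromosome 12 had 12, whereas chromosome 15 had 1 and chromosome 17 had 2. As a share of the heart list, members made up 9.49% of the peaks on chromosome 12 (13 of 137, interval 5.15 to 15.7) and 0.662% on chromosome 15 (1 of 151, interval 0.0168 to 3.63). Of the midbrain list they made up 9.80% on chromosome 11 (15 of 153, interval 5.59 to 15.7) and 1.22% on chromosome 15 (1 of 82). None of the 21 heart and 27 midbrain peaks on chromosome X was shared, which allows shares of up to 14.3% and 11.1% by a limit of 3 peaks of each total, or 16.1% and 12.8% as exact upper bounds. These chromosomes were picked after their values had been seen.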

How the data were processed

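The files are on mm9, per the submitters' processing notes. The authors deposited, for each tissue, aligned reads as 1 line per read (a count of 1 each) lengthened to 300 bp, signal as coverage by those reads at steps of 25 bp, not scaled to library size, and a ranked peak list; the rank is the only value per peak in the deposited lists. How peaks were called, with which thresholds and against which control, is not given in the sources used here.

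Peaks were joined into sites with networkx 3.6.1, and values were computed with Python 3.11.15, numpy 2.4.6, pandas 2.3.3 and scipy 1.17.1. Figures used matplotlib 3.10.9. A read was placed at the middle of its lengthened 300 bp, 150 bp from its 5 prime end, because offsets between the strands had no maximum clear in both libraries. Read pairs were most numerous at 0 to 50 bp in the heart (2249). In the midbrain they had a shallow maximum at 50 to 100 bp (18448, against 17566 at 0 to 50 bp). Heart depth was 1303861 and midbrain depth 5869671 reads, with no position and strand repeated. Ratios carry exact conditional binomial 95% intervals, and the interval and site steps were tested on simulated data. A fold of 2 counted as called.

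The members, lists and naming rule were chosen with earlier results of these data known. The rule named 26 sites off chromosome 18: 6 by summed rank, 5 by the lower bound of the ratio in each direction, 5 with a ratio nearest 1 and at least 10 heart reads, 8 with more than 1 peak of a list, 3 each with the smallest and largest offset at 10 or more heart reads, and 5 by neighbours. No mm9 genome or annotation was used here. Gene names, start sites, sequences and a check of the tissues against marker genes are thus not analysed here. Alternatives varied the overlap, boundaries, read placement, scaling, fold, depth and distances.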

Additional observations from a re-analysis of the deposited data

How the results depend on the processing

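No paired analysis was possible because each tissue has 1 library. The pooled ratio stayed in favour of the heart under every boundary, placement and scaling tried. It was 2.21 with heart-list boundaries, 1.28 with midbrain-list boundaries and 1.82 in the overlapped part. In a 500 bp window at the middle it was 1.74, and scaled to flanks 1.24. All of these kept the same 144 listed sites, so they cannot show whether the listing itself sets this direction. The lowest site level was 3.07 rpm for heart reads, at chr19:61341910-61342429 with its low count, and 1.53 rpm for midbrain reads. Whether these unequal lower ends shape the pooled ratio was not tested. Sites at least 2-fold in favour of the heart numbered 91 with heart-list boundaries, 29 with midbrain-list boundaries, 28 scaled to flanks, 82 at 1.5-fold and 15 at 3-fold; in favour of the midbrain they numbered 0, 8, 4 and 6 with heart-list, midbrain-list, overlapped and 500 bp boundaries, and 0 with thinned midbrain reads or at 3-fold. Shared peaks fell to 74 heart and 74 midbrain peaks with a reciprocal overlap of 50%, and to 67 and 70 in the better-ranked parts of both lists, where fewer peaks enter. With peaks under 1 kb apart joined, 3 sites had more than 1 region of a list. Neighbours were found for 47.9% within 20 kb and 79.9% within 100 kb, and heart enrichment was 8.27 against flanks 10 to 20 kb away. In the better-ranked parts, the shared peaks were 3.73% of the heart and 5.03% of the midbrain peaks. A stricter overlap and shorter lists can only lower the counts of shared peaks. Fold, distance and joining also change their values by construction. For the other changes the cause was not tested. The median offset stayed within its 95% interval from order statistics (225 to 325 bp) under all 5 alternatives, 2 of them added after seeing the data, as was the 75 bp shift of reads. The planned 150 bp placement became the main one. Of 182 alternatives for the ratios of the 26 named sites, 166 stayed within the interval of the reported ratio, 14 moved outside it and 2 turned a called direction. Both concern chr12:100577599-100579415, whose heart over midbrain ratio was 2.10 with heart-list boundaries and 2.42 in the overlapped part. Heart depth limits single sites: 90 of 144 held fewer than 10 heart reads.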

Other observations

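Some coverage near the sites was as high as the sites and lay outside both lists. Within 5 kb of a site and at least 150 bp from any listed peak, heart coverage reached the maximum of the site at 26 of 144 sites (18.1%, interval 12.1 to 25.3) and midbrain coverage at 16 (11.1%, interval 6.49 to 17.4), with both at 6. For the own library, heart-only peaks had such coverage in 17.9% (interval 16.6 to 19.2) and midbrain-only peaks in 7.53% (interval 6.55 to 8.60). These values were looked for after the curves of single sites had been seen.

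The clearest case in the midbrain library was beside chr13:51943040-51944653. There midbrain coverage reached 18 reads at position -2172 bp from the middle of the site, against a maximum of 10 reads inside it, and heart coverage reached 5 reads against 7. Beside chr9:85643149-85644287, midbrain coverage reached 11 reads outside against 7 inside and heart coverage 4 against 3. Beside chr7:16986756-16988439, heart coverage reached 9 reads outside against 5 inside. Why these places are in neither list was not tested. The sites on chromosomes 7 and 9 were picked once these values were known.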
